A study of Mus musculus with 8 samples.

Results

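Gene expression on the first day of osteoclast differentiation was compared with the day before and the day after it, to find the genes that peaked or dipped at day 1 and came back by day 2. The contrast set the 2 arrays of day 1 against the average of the day 0 mean and the day 2 mean (weights 1, -0.5 and -0.5), so it used 6 of the 8 arrays of the study. The cells were primary bone marrow-derived macrophages of C57BL/6 mice aged 6-8 weeks, obtained from femurs and tibias and grown with macrophage colony-stimulating factor (M-CSF). Marrow cells of all groups were kept in 5 ng/ml of M-CSF for 16 hours, and those that had not attached then grew for 3 days in 30 ng/ml, where the attached cells were taken as macrophages. The medium of all groups held 30 ng/ml of M-CSF from then on. RANKL (50 ng/ml) was added for 0, 1, 2 or 3 days, and each of these days had 2 arrays. The samples used here hold no time-matched culture on M-CSF without RANKL, so RANKL and time in culture cannot be told apart. Whether the replicates of a day are separate cultures or mice is not stated in the labels, and p-values here reflect only how far these samples spread, which may be technical.

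Osteoclasts resorb bone. They are multinucleated and form by fusion of macrophage-lineage precursors that M-CSF keeps alive and RANKL, the ligand of the receptor RANK, drives to differentiate. Before fusion the precursors pass through a period in which they still divide and grow, and the transcription factor MYC, which binds E-box sequences together with MAX, is a known driver of ribosome production and nucleotide synthesis in growing cells. Sterol synthesis is under the separate control of SREBP transcription factors, whose INSIG partners hold them in the endoplasmic reticulum when sterols are plentiful.

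Levels are log2 intensities after background correction and quantile normalization of a single-colour bead array, and comparisons are of the same probe between days. Each array detected 11281 to 11361 of 25697 probes (mean signal 720 to 841), and the tests covered 8663 named genes. Replicate pairs had correlations of 0.994 to 0.996 across genes and pairs from different days 0.881 to 0.986, where genes are not independent replicates. Precision is limited by the small number of arrays, and the contrast had a median standard error of 0.11. The labelled cell type was checked on 5 macrophage markers: Adgre1, Cd14, Itgam, Lyz2 and Spi1 were all detected, and their linear levels summed to 47902 to 51279 on the day 0 arrays, to 39203 to 39961 on those of day 1 and to 30049 to 32339 on those of day 2. Lyz2, by far the brightest of the 5, weighed most in this sum. Spi1 alone rose, from 10.03 and 10.11 at day 0 to 10.61 and 10.67 at day 1 and 11.25 and 11.13 at day 2. Of 59 marker genes of 7 other kinds of cells, 33 were detected on no array, among them Cd3e, Cd79a, Sp7 and Alas2. None of the 24 tested markers peaked or dipped. The sums over days 0, 1 and 2 were 1485 to 1591, 1101 to 1230 and 510 to 511 for the neutrophil markers, 322 to 338, 209 to 230 and 163 to 165 for the B lineage, and for the T and NK cell markers 1579 to 1592, 800 to 895 and 339 to 370. The brightest T and NK marker was Il7r, at 10.35 and 10.37, 9.10 and 9.28 and 6.78 and 6.59 on those days, while Cd3d, Cd3e and Cd8a were undetected. The osteoblast and stromal markers summed to 301 to 324, 443 to 451 and 397 to 435, and among them Dcn read 4.84 and 4.83, 7.43 and 7.47 and 7.11 and 7.34. The erythroid, mast cell and dendritic cell markers summed to between 148 and 257 in every case. Undetected markers also enter each sum, at background level. Of the 10 osteoblast and stromal markers 7 were detected on no array, so much of the lower sums is background. The part of other cells in the results was not tested. In bulk RNA, fewer cells of a type and less RNA per cell cannot be told apart.

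A gene was called peaking when the contrast, the difference from day 0 and the difference from day 2 were all above 0 with a limma adjusted p under 0.05 (Benjamini-Hochberg over the 8663 genes), and dipping when all 3 were below 0. In all, 852 genes peaked (9.83% of those tested) and 603 dipped (6.96%). In each of these genes the day 1 arrays did not overlap with those of the neighbouring days. The same held for 34.6% of all genes tested, 1693 with both day 1 arrays above the other 4 and 1302 with both below. The smaller of the 2 differences, called the smaller step below, had a median of 0.56 in peaking genes and -0.56 in dipping genes, and it reached a factor of 2 in 94 peaking and 95 dipping genes. Both differences share the day 1 arrays, so an error in these arrays would move both. The labels used here name no chip or scan batch. The samples of days 0 and 3 and those of days 1 and 2 carry sample numbers from separate ranges. If the arrays were also run in these 2 sets, the difference of day 1 from day 0 cannot be told apart from the set, while days 1 and 2 share theirs. With median scaling in place of quantile normalization 1189 genes peaked and 376 dipped, and the share of peaking genes went from 58.6% to 76.0%. The peaking count fell to 559 without day 1 replicate 2.

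The contrast on its own passed for many more genes, 1898 above 0 (21.9% of those tested) and 1910 below 0 (22.0%). Of the 1898, 1046 did not peak: 492 were called higher than day 0 only, 542 higher than day 2 only and 12 higher than neither day. Of the 1910, 1307 did not dip, with 612, 688 and 7 called lower in the same order. A gene counted under 1 day may also have differed from the other day in the opposite direction. Cathepsin K (Ctsk), the main collagen-degrading protease of osteoclasts, shows why both differences were required. Its contrast was 2.36 ± 0.08, yet its level went from 8.11 and 8.20 at day 0 to 13.87 and 13.97 at day 1 and on to 15.01 and 14.91 at day 2. That is an early rise without a return.

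**Figure D1:**
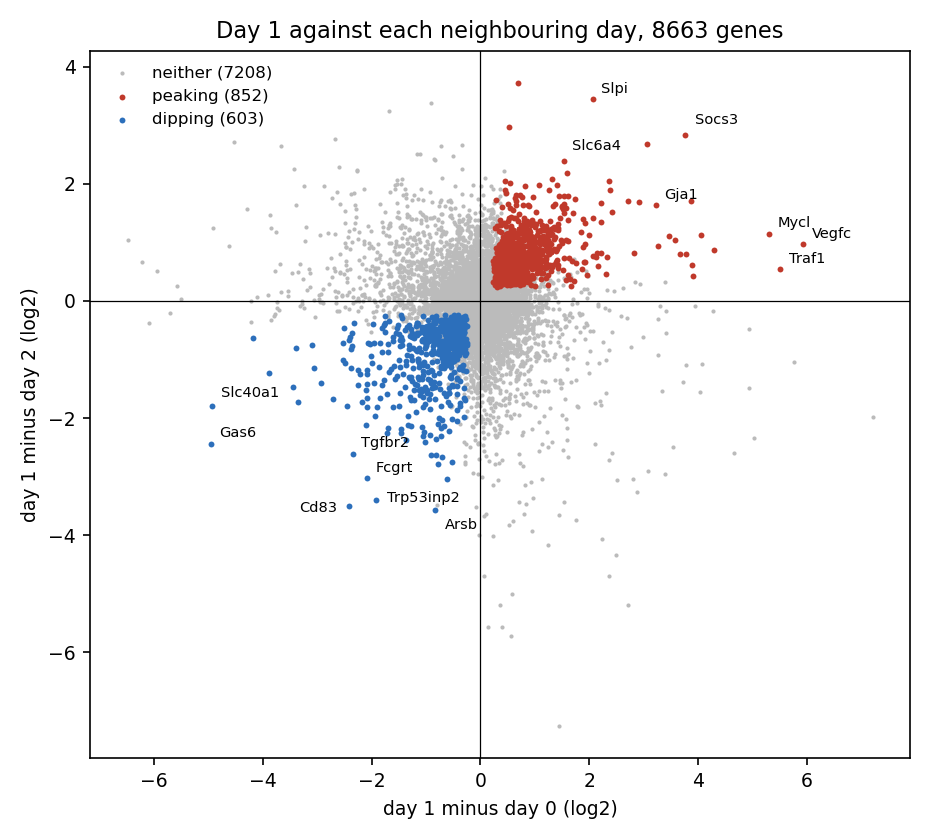
Each point is 1 of 8663 genes, with the log2 difference of day 1 from day 0 on the x axis and from day 2 on the y axis. The 852 peaking genes (red) fill the upper right and the 603 dipping genes (blue) the lower left, with Socs3, Slpi and Slc6a4 far from 0 on both axes in one corner and Gas6, Tgfbr2, Fcgrt and Cd83 in the other.

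The peaking and dipping genes were brighter than most. Their median mean level was 9.28 and 9.36, against 8.26 over all genes tested. At day 2 the genes lay on both sides of their starting level, above it in 434 and below it in 418 of the peaking genes, and above it in 308 and below it in 295 of the dipping genes. The median distance from the day 0 mean on the 2 day 2 arrays was 0.02 and -0.004 for peaking genes and 0.01 on both for dipping genes. On the day 1 arrays the same medians were 0.69 on both for peaking genes and -0.71 on both for dipping genes. Day 3, which took no part in the contrast, lay on the far side of the starting level for most of these genes. Of the 852 peaking genes, 600 had a day 3 mean below both day 0 and day 2, 158 between them and 94 above both, and 8 exceeded day 1. Of the 603 dipping genes, 363 had a day 3 mean above both, 145 between them and 95 below both, and 9 were lower than at day 1. These positions are described without a test, because the day 0 and day 2 arrays also chose the genes.

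**Figure D2:**
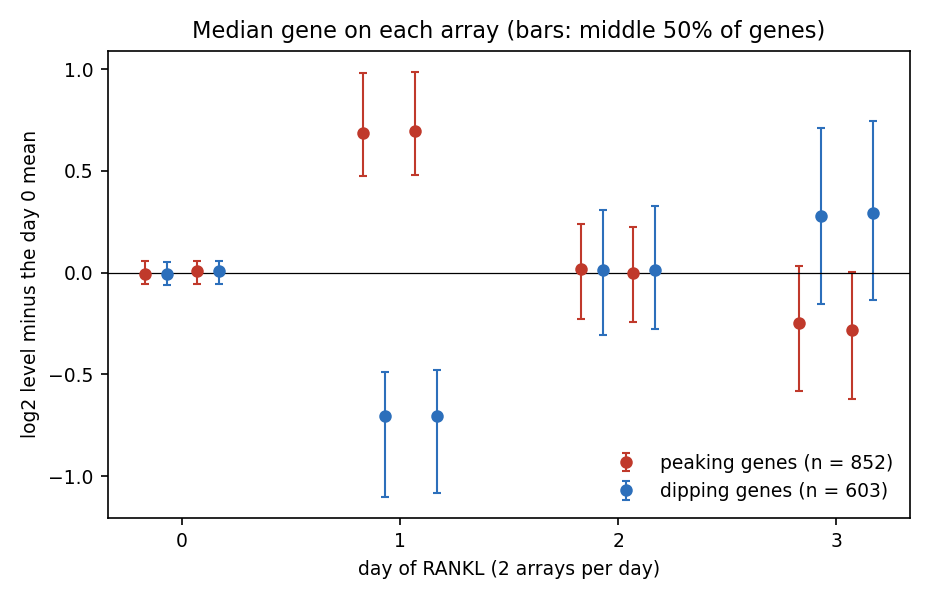
The median of the peaking genes (red, n = 852) and of the dipping genes (blue, n = 603) is plotted for each of the 8 arrays as the log2 difference from each gene's day 0 mean, with bars over the middle 50% of genes. Both medians returned to near 0 at day 2 and crossed to the opposite side at day 3, at -0.25 and -0.28 for peaking genes and 0.28 and 0.29 for dipping genes.

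Among regulators of signalling, the widest excursion of a detected gene was that of Socs3, which codes for the SOCS protein that inhibits gp130 and JAK signalling. Its level was 5.46 and 5.98 on the day 0 arrays, 9.53 and 9.42 on the day 1 arrays, 6.68 and 6.59 at day 2 and 6.09 and 6.52 at day 3. Both day 1 arrays stood far above the other 6. The contrast was 3.30 ± 0.18 (n = 2 arrays per day, limma adjusted p = 4.91e-05), which is 13.5-fold over day 0 and 7.15-fold over day 2. Of 22 tested feedback phosphatase and SOCS genes 3 peaked (13.6%) and 2 dipped (9.09%), near the 9.83% and 6.96% of all genes. Of these, Dusp16 lost its call with median scaling, with the replicate block and without the detection filter. It also lost its call when any single array of days 0 to 2 other than day 1 replicate 2 was left out. Dusp6, a phosphatase that inactivates ERK, was one of those that dipped. It read 12.71 and 12.53 at day 0, 9.62 and 9.49 at day 1 and 10.74 and 10.67 at day 2, so its return was partial. The contrast was -2.10 ± 0.08 (limma adjusted p = 2.26e-05), and 2 further probes of the gene gave contrasts of -1.71 and -1.30 without passing all 3 criteria. Traf1, an adaptor of TNF receptor family signalling, gained 5.51 from day 0 to day 1 and lost only 0.55 by day 2. It therefore counts as peaking although it stayed high, at 11.31 and 11.24 on the day 2 arrays against 6.35 and 6.26 on the day 0 arrays.

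Myc peaked. Its level was 6.10 and 5.82 at day 0, 7.42 and 7.72 at day 1, 5.79 and 5.77 at day 2 and 5.64 and 5.59 at day 3. The 2 day 1 arrays lay above all the others, and day 2 was no higher than day 0. The contrast was 1.70 ± 0.12 (limma adjusted p = 0.000114), a level 3.05-fold that of day 0 and 3.46-fold that of day 2. Its relative Mycl followed another course, with 5.28 and 5.14 at day 0, where 1 of the 2 arrays detected it, 10.49 and 10.53 at day 1 and 9.41 and 9.32 at day 2. Mycl was called peaking with a contrast of 3.23 ± 0.08, but most of that rise remained at day 2. Of the other 7 tested genes of the MYC and MAX network, Mlx dipped, with a contrast of -0.75 ± 0.13, and its call was lost without day 1 replicate 1, where the smaller step was -0.61. The other probe of Mlx gave -0.17 and was not called. Max, the shared partner, had a contrast of 0.01 and did not pass.

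AP-1 and immediate early genes showed both directions, with 4 of 18 peaking (22.2%) and 2 dipping (11.1%), against 9.83% and 6.96% of all genes. Those that dipped were Jund and Egr1, and 1 dipped without either array of day 1 or either array of day 2. Among genes detected on all 8 arrays 2 peaked. Fosl1, which codes for FRA-1, read 5.75 and 5.69 at day 0, 7.26 and 7.35 at day 1 and 4.84 and 5.40 at day 2, where 1 of the 2 arrays detected it. Its contrast was 1.88 ± 0.16 (limma adjusted p = 0.000216). Fos was highest at day 1 as well, at 12.15 and 11.71, and stayed at 11.19 and 11.17 at day 2, above its 9.78 and 9.84 of day 0. Egr2, a zinc finger factor, was detected at day 1 only and was at least 2.51-fold higher there than on either neighbouring day (limma adjusted p = 0.000263). Among Kruppel-like factors, Klf4 peaked with a contrast of 1.16 ± 0.12, and 1 of its 2 other probes had the same call. Klf3, a transcriptional repressor, ran the other way: it was detected on both arrays of days 0 and 2 and on none of day 1, and was at least 3.28-fold lower at day 1 (limma adjusted p = 7.6e-05).

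**Figure D3:**
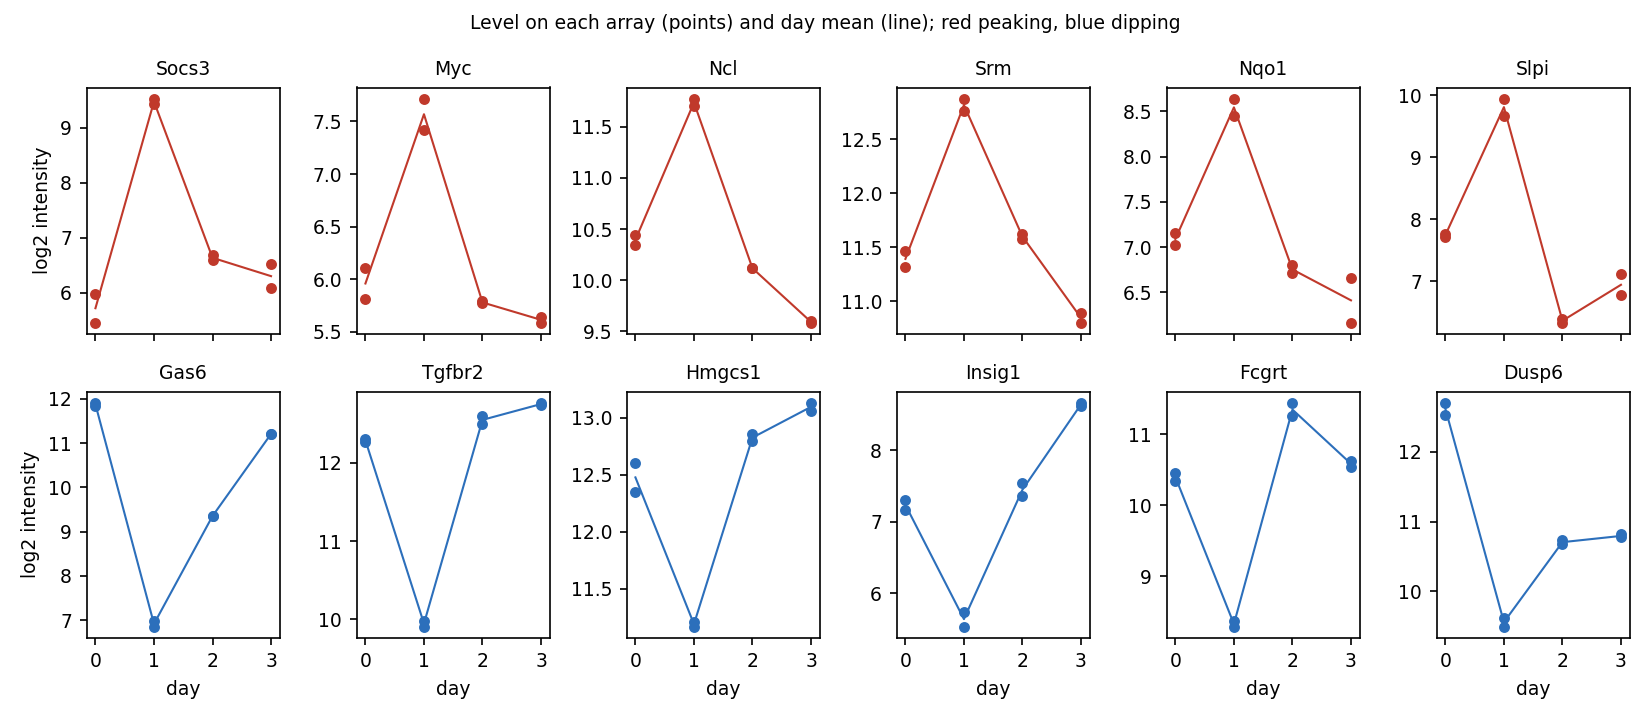
The log2 intensity of 12 genes is plotted for each of the 8 arrays (points) with a line through the day means, on a separate y axis for each gene. The peaking genes Socs3, Myc, Ncl, Srm, Nqo1 and Slpi (red, upper row) were highest on both day 1 arrays, and the dipping genes Gas6, Tgfbr2, Hmgcs1, Insig1, Fcgrt and Dusp6 (blue, lower row) were lowest there.

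Most tested genes of the nucleolar machinery that makes ribosomes peaked. Of 44 tested genes of nucleolar ribosome assembly 35 peaked and 0 dipped, against 9.83% and 6.96% of all genes tested, and the median contrast was 1.00 against 0.0002 over all genes. The contrast alone passed upward for 41 of the 44. At day 1, 38 were higher than at day 0 and 38 higher than at day 2, against 24.0% and 25.0% of all genes. The other 9 were Nop58, Ftsj3, Nolc1, Nop9, Nop14, Nop10, Rpf2, Urb2 and Nol9, and of these Nol9 alone had a contrast near 0, at -0.01.

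Rcl1, needed to cut the precursor of ribosomal RNA, read 9.59 and 9.62 at day 0, 11.20 and 11.07 at day 1, 9.64 and 9.61 at day 2 and 9.08 and 9.13 at day 3. Day 2 matched day 0 within the spread of the arrays, and day 3 lay below both. Its contrast was 1.52 ± 0.07 (limma adjusted p = 3.58e-05), and its 2 other probes had the same call. Ncl, which codes for nucleolin, was at 10.44 and 10.34 at day 0, 11.77 and 11.70 at day 1 and 10.12 and 10.12 at day 2, a contrast of 1.48 ± 0.07. Mrto4, a factor in assembly of the large subunit, went from 9.82 and 9.96 to 11.35 and 11.17 and back to 10.11 and 9.96. In each of these the pair of day 1 arrays stood clear of the other days, as it did of days 0 and 2 in every peaking gene. Nle1, which acts in maturation of the large subunit, had a contrast of 1.44 ± 0.09, while its other probe gave 1.06 without passing all criteria. The box C/D methyltransferase fibrillarin (Fbl) had a contrast of 1.13 ± 0.11, the large subunit of RNA polymerase I (Polr1a) 0.68 ± 0.07, and nucleophosmin (Npm1), which was the brightest of these, 0.45 ± 0.11.

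**Figure D4:**
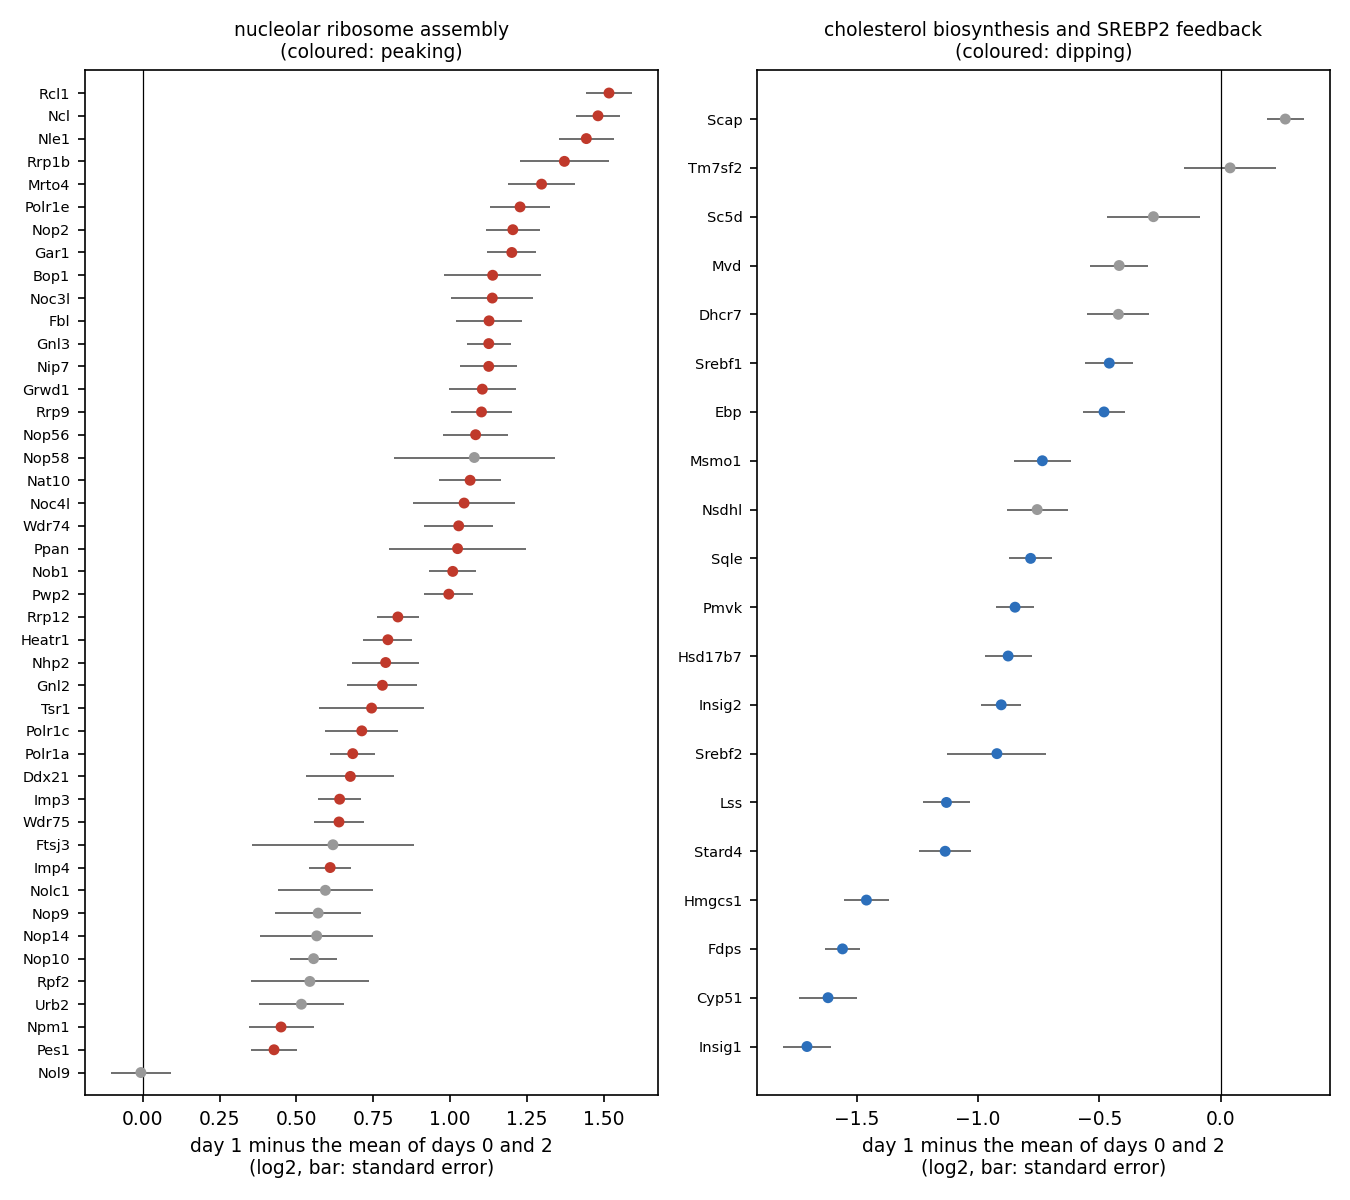
Contrasts of day 1 with the mean of days 0 and 2 are plotted on the log2 scale for the 44 tested nucleolar ribosome assembly genes (left) and the 20 tested cholesterol genes (right), with bars of 1 standard error. Coloured points are called peaking (left) or dipping (right), 35 of 44 and 14 of 20, and grey points are neither.

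Most tested genes that supply nucleotides and polyamines peaked as well. Of 19 tested, 12 peaked (63.2%) and 0 dipped, against 9.83% and 6.96% of all genes, with a median contrast of 0.68. Srm, spermidine synthase, read 11.47 and 11.32 at day 0, 12.76 and 12.87 at day 1, 11.58 and 11.62 at day 2 and 10.89 and 10.80 at day 3. Its contrast was 1.32 ± 0.08 (limma adjusted p = 8.32e-05), and both other probes had the same call. Gart, a trifunctional enzyme of purine synthesis, had a contrast of 1.37 ± 0.09, Cad, which starts pyrimidine synthesis, 1.29 ± 0.10, Ctps, CTP synthase, 1.27 ± 0.07, and Adss, of the AMP branch, 1.19 ± 0.08. Ornithine decarboxylase (Odc1), the entry to polyamine synthesis, gave 0.68 ± 0.08. Outside this list, the deoxycytidylate deaminase gene Dctd was among the 15 detected genes with the largest smaller steps, going from 8.44 and 8.70 to 10.20 and 10.10 and back to 8.70 and 8.42 with a contrast of 1.58 ± 0.12.

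Translation factors, tRNA synthetases and ribosomal proteins take part in protein synthesis. Of 31 translation initiation factors 10 peaked, with a median contrast of 0.30. Eif5a, the factor that carries hypusine made from spermidine, read 12.60 and 12.77 at day 0, 13.71 and 13.77 at day 1 and 12.95 and 12.89 at day 2, a contrast of 0.94 ± 0.08. Eif6, which keeps ribosomal subunits apart, had a contrast of 0.93 ± 0.08 and Eif3b, a scaffold subunit of eIF3, 0.97 ± 0.12. Without day 1 replicate 2 or without day 2 replicate 2 the count of peaking initiation factors was 6. Among 29 aminoacyl-tRNA synthetases 6 peaked, such as Kars at 0.82 ± 0.08 and Mars2 at 0.91 ± 0.07. Cytosolic ribosomal protein genes showed little of the pattern, with 2 of 53 peaking and a median contrast of 0.11. Across the alternatives 0 to 7 of these genes peaked, 0 without day 2 replicate 2 and 1 without any of the other 3 arrays of days 1 and 2. Of 69 mitochondrial ribosomal protein genes 53 were higher at day 1 than at day 0. Against day 2, however, 9 were higher and 9 lower at day 1. Of the 69, 8 peaked (11.6%), near the 9.83% of all genes. Without one of the 4 arrays of days 1 and 2 that 8 became 1 to 4, and it was 3 without the detection filter and 13 with a trended, robust variance model.

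Protein folding genes were taken by compartment. Of all genes tested, 9.83% peaked and 6.96% dipped. Of 21 chaperonin and mitochondrial chaperone genes 8 peaked (38.1%) and 0 dipped. Among those that peaked was Timm9, a carrier of membrane proteins between the mitochondrial membranes. It read 11.54 and 11.63 at day 0, 12.63 and 12.64 at day 1 and 11.91 and 11.91 at day 2. The contrast of Timm9 was 0.89 ± 0.08. One of its 3 other probes, at 0.25, was not called. The count of peaking chaperones was 3 without day 1 replicate 1, 4 without day 1 replicate 2, 3 without day 2 replicate 1 and 5 without day 2 replicate 2. Of 27 proteasome subunits 6 peaked, a count that fell to 0 without day 1 replicate 1, day 1 replicate 2 or day 2 replicate 2 and to 2 without any of the other 3 arrays of days 0 and 2. Of 16 endoplasmic reticulum chaperone and unfolded protein response genes 0 peaked and 6 dipped (37.5%, against 6.96% of all genes), with a median contrast of -0.65. Dnajb9, a cochaperone induced by endoplasmic reticulum stress, fell from 7.77 and 7.77 to 6.73 and 6.72 and came back to 8.62 and 8.46 (contrast -1.43 ± 0.13, limma adjusted p = 0.000279). Xbp1, the transcription factor of the same response, had a contrast of -0.72 ± 0.08, Hsp90b1 -0.71 ± 0.11 and Dnajc3 -0.91 ± 0.09. Ddit3, the stress factor CHOP, dipped too, at -1.30 ± 0.13.

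Amino acid supply and one-carbon metabolism held members of both kinds. Slc7a5, the light chain of the large neutral amino acid transporter, peaked: it read 10.55 and 10.77 at day 0, 11.94 and 12.09 at day 1 and 10.84 and 10.65 at day 2, with a contrast of 1.31 ± 0.10. The cystine transporter gene Slc7a11 was detected at day 1 only, at least 1.46-fold above either neighbour (limma adjusted p = 0.000164). Slc7a7, of the cationic amino acid exporter, dipped with a contrast of -1.73 ± 0.17. In all, 3 of 24 amino acid transporter and ATF4 response genes peaked (12.5%) and 4 dipped (16.7%), against 9.83% and 6.96% of all genes. Of 15 serine, one-carbon and methionine genes 4 peaked (26.7%) and 1 dipped (6.67%, near the share of all genes). Shmt2, the mitochondrial serine hydroxymethyltransferase, had a contrast of 1.07 ± 0.07, and Mtap, which salvages methionine from the by-product of polyamine synthesis, 1.08 ± 0.08. The member that dipped was Aldh1l1, which oxidises formyl-tetrahydrofolate: it was detected on no day 1 array and was at least 2.23-fold lower there (limma adjusted p = 3.63e-05). Of its 3 other probes, 2 had the same call and the third, at -0.03, did not.

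Methyltransferase genes, which use the methyl donor made from methionine, peaked in part. Of 31 tested histone methyltransferases and demethylases 11 peaked (35.5%) and 1 dipped (3.23%), against 9.83% and 6.96% of all genes. The median contrast was 0.38. The dip, that of Kdm4c, was lost with median scaling, without the detection filter, in the authors' processed values and without either day 0 array, day 1 replicate 1 or day 2 replicate 1. Smyd5, a SET and MYND domain protein, had the highest contrast of the list, at 1.10 ± 0.10. Of the arginine methyltransferases, Prmt5, which dimethylates arginine symmetrically, read 9.80 and 9.35 at day 0, 10.45 and 10.46 at day 1 and 9.22 and 9.29 at day 2, a contrast of 1.04 ± 0.14. Carm1 had a contrast of 1.05 ± 0.12, Prmt6 0.84 ± 0.10 and Prmt3, whose known substrate is a ribosomal protein, 0.75 ± 0.07. The lysine demethylase gene Kdm1a gave 0.50 ± 0.09. The peaking count was 7 without day 1 replicate 2 and 7 without day 2 replicate 2. Of the DNA methyltransferases, Dnmt3b peaked with a contrast of 0.68 ± 0.08, and Dnmt3a was detected on 0 arrays and was not tested.

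**Figure D5:**
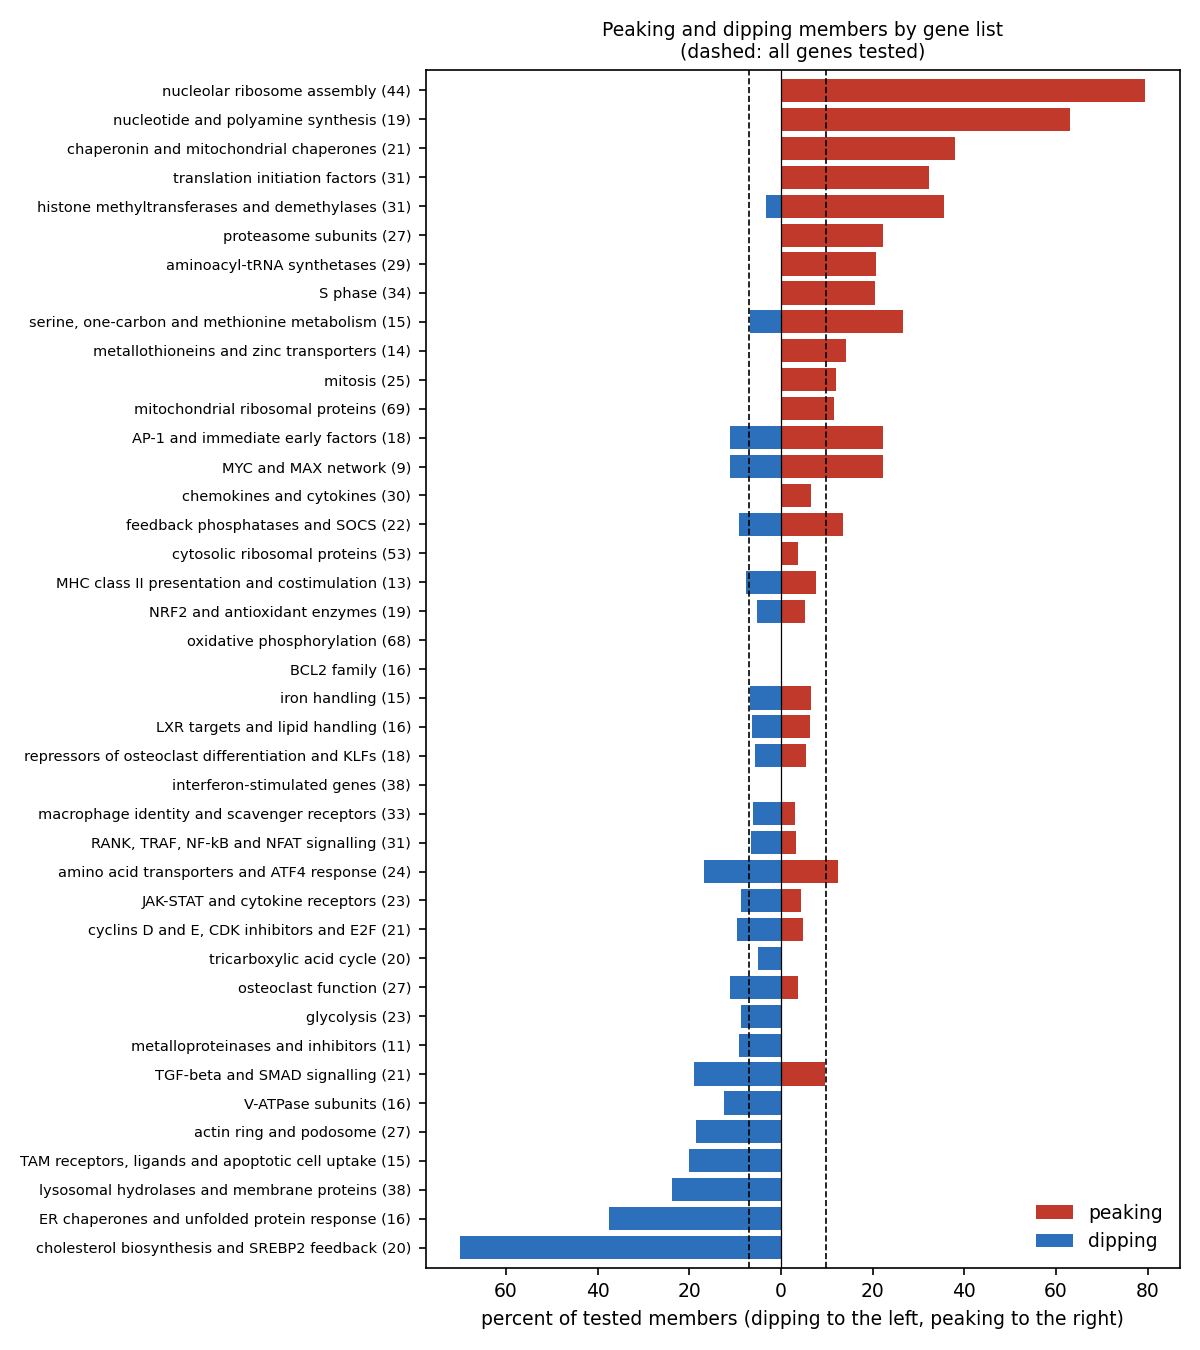
Bars give the percentage of tested members of each gene list that peaked (red, to the right) or dipped (blue, to the left), with the number tested in parentheses and dashed lines at the 9.83% and 6.96% of all genes tested. Nucleolar ribosome assembly (35 of 44) and nucleotide and polyamine synthesis (12 of 19) stand at one end and cholesterol biosynthesis (14 of 20) at the other. Lists with under 9 tested genes and marker lists are not drawn.

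Cell cycle genes had a positive contrast far more often than they peaked. Of 34 tested S phase genes 30 passed the contrast upward, against 21.9% of all genes, but 7 peaked (20.6%, against 9.83%). At day 1, 8 were higher than at day 0, near the 24.0% of all genes, and 32 higher than at day 2, against 25.0%. Mcm5, a subunit of the replicative helicase, illustrates this course, with 13.00 and 13.04 at day 0, 13.20 and 12.98 at day 1 and 11.69 and 11.72 at day 2. The first 2 days overlapped and the fall came afterwards. Members that did peak were Orc6, of the origin recognition complex, which read 11.09 and 11.01, 11.82 and 11.82 and 10.82 and 10.76 on days 0, 1 and 2, and Gins3, with a contrast of 0.93 ± 0.12. Of 25 mitosis genes 22 passed the contrast upward and 3 peaked (12%, near the share of all genes). Among these was Cdc20, an activator of the anaphase-promoting complex, at 0.67 ± 0.07. With median scaling 12 S phase and 6 mitosis genes peaked. Cdk6 was the cyclin-dependent kinase gene that peaked, at 0.82 ± 0.12, and the inhibitor gene Cdkn1c dipped, at -1.09 ± 0.09.

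Several of the largest single peaks were genes of the cell surface and of secretion. Slpi, a secreted inhibitor of serine proteases, read 7.72 and 7.77 at day 0, 9.67 and 9.94 at day 1, 6.39 and 6.33 at day 2 and 6.77 and 7.11 at day 3. It ended well below where it began. Its contrast was 2.76 ± 0.12 (limma adjusted p = 3.25e-05), 4.18-fold over day 0 and 10.9-fold over day 2. Gja1, the gap junction protein connexin 43, went from 9.23 and 9.12 to 12.40 and 12.41 and then 10.68 and 10.87, a contrast of 2.43 ± 0.11 with a return that was incomplete at day 2. Flrt2, a membrane protein with leucine-rich repeats, had 6.98 and 6.62, 9.14 and 9.23 and 7.39 and 7.19 on days 0, 1 and 2, and a contrast of 2.14 ± 0.13. The zinc importer gene Slc39a4 (ZIP4) had a contrast of 1.74 ± 0.18, with both steps at 1.74.

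A further 5 genes were not well above background on at least 1 neighbouring day. Slc6a4, the serotonin transporter, was detected on both day 1 arrays and on none of the other 6: it read 7.53 and 7.51 on those and stood at least 4.81-fold higher than on either neighbouring day (limma adjusted p = 2.85e-05). Flrt3, a paralogue of Flrt2, was undetected at day 0 and on 1 of the 2 day 2 arrays, and its day 1 level was higher by at least 3.49-fold. Diras2, a small GTPase, Klk8, a secreted serine protease, and Wwc1, the scaffold protein KIBRA, were undetected at day 0 only. Their day 1 levels were at least 9.25-fold, 5.01-fold and 5.02-fold those of day 0 and 3.27-fold, 3.25-fold and 3.21-fold those of day 2. The growth factor gene Vegfc, undetected at day 0, stood at least 39.6-fold higher on day 1 and 1.96-fold higher than at day 2, so it mostly stayed high.

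Among enzymes and other intracellular products, Nqo1, a quinone reductase, read 7.03 and 7.16 at day 0, 8.45 and 8.64 at day 1 and 6.71 and 6.80 at day 2. The contrast was 1.62 ± 0.14. Of 19 tested NRF2 and antioxidant genes Nqo1 alone peaked (5.26%) and 1 dipped (5.26%), against 9.83% and 6.96% of all genes. Ugt1a6a, a glucuronosyltransferase of a locus whose variants share exons, had a contrast of 1.67 ± 0.16. One of its 2 other probes had the same call. Rgcc, a regulator of the cell cycle, gave 1.96 ± 0.21, the kinase gene Dyrk3 1.97 ± 0.16, Rangrf, a factor that releases nucleotide from RAN, 1.55 ± 0.07, and Ydjc 1.56 ± 0.09. Each of these had both day 1 arrays above the 4 arrays of the neighbouring days, as did all 852 peaking genes. Of immune genes, Clec4e, the receptor MINCLE, was at 9.06 and 9.14 at day 0, 9.89 and 9.86 at day 1 and 8.02 and 8.17 at day 2, and Il1rn, the interleukin-1 receptor antagonist, had a contrast of 1.29 ± 0.08 although its level rose again to 9.64 and 9.74 at day 3, above day 1.

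The deepest dip was that of Gas6, the ligand of the TAM receptor kinases, which bridges them to the phosphatidylserine of dying cells. Its level was 11.91 and 11.84 at day 0, 6.85 and 6.98 at day 1, 9.34 and 9.36 at day 2 and 11.20 and 11.21 at day 3. The fall at day 1 was followed by a return in steps, and at day 3 it was still under its starting level. The contrast was -3.70 ± 0.07 (limma adjusted p = 5.53e-06), with a level 31.1-fold lower than at day 0 and 5.41-fold lower than at day 2. The 15 tested TAM receptor, ligand and apoptotic cell uptake genes included 3 that dipped (20%, against 6.96% of all genes), Gas6, Mfge8 and Calr. Mfge8, which codes for another bridging protein, had a contrast of -1.08 ± 0.09. Without day 1 replicate 1, Gas6 kept its call and Mfge8 and Calr lost theirs, at smaller steps of -0.26 and -0.54, and the same held with median scaling, at -0.27 and -0.41. Mfge8 also lost it without day 0 replicate 2, and Calr without day 0 replicate 1 or day 1 replicate 2.

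Of 21 tested genes of transforming growth factor beta (TGF-beta) signalling 4 dipped (19.0%) and 2 peaked (9.52%), against 6.96% and 9.83% of all genes. Tgfbr2, the type II receptor, read 12.31 and 12.27 at day 0, 9.91 and 9.98 at day 1, 12.60 and 12.50 at day 2 and 12.74 and 12.77 at day 3. Days 0 and 2 were close and day 1 lay far below them. Its contrast was -2.47 ± 0.07 (limma adjusted p = 1.24e-05), and its other probe had the same call. Tgfbr1, the type I receptor, had a contrast of -1.44 ± 0.08, but its 2 other probes, at -0.61 and -0.54, did not meet all criteria, and 1 of them was 0.24 above day 0. Ltbp3, which binds latent TGF-beta, gave -1.78 ± 0.10, while its other probe, at -0.71 and 0.07 above day 0, was not called. Smad1, a transducer of the bone morphogenetic protein branch, gave -0.75 ± 0.18. The activin receptor gene Acvr1 peaked, at 0.85 ± 0.10.

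Ferroportin (Slc40a1), the iron exporter, was at 11.52 and 11.50 at day 0, 6.77 and 6.39 at day 1 and 8.23 and 8.51 at day 2. Day 1 was lowest and day 2 regained only part of the fall, with a contrast of -3.36 ± 0.13 (limma adjusted p = 2.26e-05). The neonatal Fc receptor gene Fcgrt went from 10.34 and 10.45 to 8.36 and 8.28 and then to 11.25 and 11.45, above its start, with a contrast of -2.55 ± 0.09. Among surface proteins of the macrophage, Sirpa, which receives the signal of CD47, read 9.52 and 9.57, 8.32 and 8.21 and 9.62 and 9.51 on days 0, 1 and 2. Cd83, a surface protein of activated antigen-presenting cells, was detected on every array except those of day 1 and was at least 3.84-fold lower there (limma adjusted p = 2.85e-05). P4ha2, a collagen prolyl hydroxylase, Gpr176, an orphan receptor, and the complement gene C2 were also undetected at day 1 alone and at least 2.76-fold, 2.11-fold and 1.74-fold lower there.

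Genes of autophagy stood among the 15 detected genes with the deepest dips. Wipi1, which binds phosphatidylinositol 3-phosphate on forming autophagosomes, read 8.87 and 8.80 at day 0, 6.87 and 6.94 at day 1 and 8.97 and 8.75 at day 2. Its contrast was -1.94 ± 0.09, and 1 of its 2 other probes had the same call. Trp53inp2, which acts in autophagosome formation, had 8.47 and 8.59, 6.69 and 6.55 and 10.01 and 10.03 on the same days and a contrast of -2.66 ± 0.08. Retreg1, a receptor for autophagy of the endoplasmic reticulum, had the contrast -2.12 ± 0.24. These 3 were grouped after their values were seen. The other genes of this rank were Arap3, a GTPase-activating protein, at -2.10 ± 0.09, Lrrc25 at -1.86 ± 0.09, Tmem86a, a lysoplasmalogenase, at -1.99 ± 0.08, Slc46a3, a lysosomal transporter, at -2.54 ± 0.10, Marcksl1, an actin-regulating protein, at -2.18 ± 0.15 with 1 of 3 other probes not called, Rell1 at -1.75 ± 0.15 and Htra3, a secreted serine protease, at -1.86 ± 0.14. Rell1 and Htra3 were detected on 1 of the 2 day 1 arrays.

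Most tested genes of cholesterol synthesis dipped. Of 20 tested genes of cholesterol biosynthesis and SREBP2 feedback 14 dipped (70%) and 0 peaked, against 6.96% and 9.83% of all genes. The median contrast was -0.82. At day 1, 15 were lower than at day 0 and 16 lower than at day 2, against 21.9% and 23.4% of all genes. Insig1, which retains SREBP in the endoplasmic reticulum and is itself a target of SREBP2, had the lowest contrast. It read 7.30 and 7.16 at day 0, 5.53 and 5.74 at day 1, 7.54 and 7.36 at day 2 and 8.66 and 8.62 at day 3. Its contrast was -1.71 ± 0.10 (limma adjusted p = 6.27e-05), and both other probes had the same call.

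The members that dipped included enzymes of early and late steps. Hmgcs1, HMG-CoA synthase at the head of it, was at 12.35 and 12.60 at day 0, 11.17 and 11.21 at day 1 and 12.86 and 12.79 at day 2, a contrast of -1.46 ± 0.09. Fdps, farnesyl diphosphate synthase, read 12.55 and 12.53, 10.71 and 10.84 and 12.14 and 12.13 on those days, a contrast of -1.56 ± 0.07. Cyp51, which demethylates lanosterol, had -1.62 ± 0.12, Lss, which makes lanosterol, -1.13 ± 0.10, and Sqle, squalene epoxidase, -0.78 ± 0.09. Day 1 was the low point in all of these. Its arrays did not overlap with those of the neighbouring days, which held for every dipping gene. The transcription factor genes Srebf2 and Srebf1 had contrasts of -0.92 ± 0.20 and -0.46 ± 0.10, and the sterol transfer gene Stard4 -1.14 ± 0.11. The 6 members outside the call were Mvd, Dhcr7, Nsdhl, Sc5d, Tm7sf2 and Scap, the SREBP escort, whose contrast was 0.27 ± 0.08.

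Of 38 tested lysosomal genes 9 dipped (23.7%) and 0 peaked, against 6.96% and 9.83% of all genes. At day 1, 27 were lower than at day 0, against 21.9% of all genes. Against day 2, 16 were lower and 7 higher at day 1, where all genes gave 23.4% and 25.0%. The median contrast was -0.44. Hexa, a subunit of beta-hexosaminidase, read 13.20 and 13.23 at day 0, 12.11 and 12.07 at day 1 and 13.57 and 13.65 at day 2, a contrast of -1.33 ± 0.07. Arsb, arylsulfatase B, was at 11.22 and 11.21, 10.40 and 10.35 and 13.88 and 14.02, so that its dip before a larger rise was shallow, and its other probe, at -0.19 against day 0, was not called. Gla, alpha-galactosidase A, passed with a contrast of -1.08 ± 0.29 (limma adjusted p = 0.0236), but its day 0 arrays differed by more than 1 log2 unit, at 7.14 and 5.99, and its call was lost in 10 of 19 alternatives. The dipping count was 5 without day 1 replicate 1.

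Osteoclast genes mostly did not turn at day 1, like most genes tested. Of 27 tested osteoclast function genes 15 were higher at day 1 than at day 0, against 24.0% of all genes. At day 1, 23 were lower than at day 2, against 23.4%. Of the 27, 1 peaked (3.70%) and 3 dipped (11.1%), against 9.83% and 6.96%. The one that peaked was Cd44, an adhesion receptor, with 11.00 and 11.16 at day 0, 11.84 and 11.81 at day 1 and 11.31 and 11.28 at day 2. Those that dipped were Plekhm1, an adaptor of lysosome traffic, at -1.35 ± 0.08, Ckb, creatine kinase B, at -1.16 ± 0.07, and Ostm1, the partner of the chloride transporter CLC-7, at -1.26 ± 0.09. The other probe of Plekhm1, at -0.64, did not pass. Loss of function of Plekhm1 or Ostm1 is known to cause osteopetrosis. Ckb read 15.05 and 15.05 at day 0, 13.96 and 14.03 at day 1 and 15.26 and 15.26 at day 2. Quantile normalization gives the same level to arrays on which a gene holds the same rank, so these equal values do not measure its spread. Of 27 actin ring and podosome genes 5 dipped, among them vinculin (Vcl) at -1.72 ± 0.08 and the kinase gene Ptk2b at -0.93 ± 0.09. With median scaling 3 did.

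In other groups few or no genes turned at day 1. Of 68 oxidative phosphorylation genes 0 peaked and 0 dipped, against 9.83% and 6.96% of all genes. At day 1, 18 were higher than at day 0, near the 24.0% of all genes, and 55 lower than at day 2, against 23.4%. Of 38 interferon-stimulated genes 29 were lower at day 1 than at day 0 and 28 higher than at day 2, against 21.9% and 25.0%. This was a continued fall in which 0 peaked and 0 dipped. Of 33 macrophage identity and scavenger receptor genes 25 were lower at day 1 than at day 0 and 18 higher than at day 2. Of the 33, 1 peaked (3.03%) and 2 dipped (6.06%), the latter near the share of all genes.

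Promoters were searched for binding motifs in the RefSeq table (assembly GRCm38.p6), which held a promoter of 250 bases before to 50 bases after the start for 7115 of the 8663 genes. Searches covered 5 motifs on both strands: the E-box CACGTG bound by MYC with MAX, the AP-1 site TGANTCA, a sterol regulatory element TCACNCCAC, the interferon-stimulated response element and the NF-kB site. The E-box stood in 14.24% of 878 promoters of peaking genes, 12.94% of 657 promoters of dipping genes and 10.12% of 9173 promoters of all genes tested, against 7.15% of all 32851 promoters in the table. It was held by 8 of 42 promoters of nucleolar ribosome assembly genes, by 6 of 25 of cholesterol genes and by 11 of 39 of lysosomal genes. Among the members that turned, these counts were 6 of 31, 2 of 16 and 4 of 10. The sterol element stood in 0.5695% of promoters of peaking genes, 2.131% of dipping genes and 1.068% of all genes tested. It was in 1 of the 25 cholesterol promoters, that of Hmgcs1. For AP-1 the shares were 3.872%, 5.632% and 5.691%, for the interferon element 2.847%, 1.218% and 3.172%, and for NF-kB 0.4556%, 1.065% and 0.4688%. Median GC content was 60.67%, 61.67% and 60.33% in the same order. A match is a description of the letters and not evidence of binding.

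Promoters of 3 peaking genes with an E-box, one each from the initiation factor, methyltransferase and mitochondrial chaperone lists, and of 2 dipping cholesterol genes are shown to set the searched letters in their context. They were picked for these lists after the matches were known. Each is the 250 bases before the start, 5′ to 3′ on the strand of the gene, with the motif in capitals: Eif5a at chr11:69921387-69921636 (minus strand), Prmt3 at chr7:49778108-49778357 (plus strand), Timm9 at chr12:71136676-71136925 (minus strand), Insig1 at chr5:28071162-28071411 (plus strand) and Hmgcs1 at chr13:119690101-119690350 (plus strand).
Eif5a: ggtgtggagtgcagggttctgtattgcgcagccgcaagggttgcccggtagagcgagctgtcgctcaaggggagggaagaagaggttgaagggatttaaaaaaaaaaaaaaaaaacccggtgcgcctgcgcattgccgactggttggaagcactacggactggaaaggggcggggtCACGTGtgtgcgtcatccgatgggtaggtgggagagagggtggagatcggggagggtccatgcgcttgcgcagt
Prmt3: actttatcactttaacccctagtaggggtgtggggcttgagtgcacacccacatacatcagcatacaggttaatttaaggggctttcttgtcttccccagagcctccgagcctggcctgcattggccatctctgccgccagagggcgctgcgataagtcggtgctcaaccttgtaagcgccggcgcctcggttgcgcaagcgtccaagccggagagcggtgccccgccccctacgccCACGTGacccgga
Timm9: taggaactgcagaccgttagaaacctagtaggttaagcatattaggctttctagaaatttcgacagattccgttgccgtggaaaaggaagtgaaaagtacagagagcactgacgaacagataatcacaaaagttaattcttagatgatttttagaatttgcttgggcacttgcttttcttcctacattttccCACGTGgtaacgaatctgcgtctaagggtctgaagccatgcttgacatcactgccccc
Insig1: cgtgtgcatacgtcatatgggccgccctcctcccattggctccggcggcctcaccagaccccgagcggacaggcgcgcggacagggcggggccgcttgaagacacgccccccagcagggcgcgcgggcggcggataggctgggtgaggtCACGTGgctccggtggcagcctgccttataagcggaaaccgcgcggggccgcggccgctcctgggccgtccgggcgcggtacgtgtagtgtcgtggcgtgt
Hmgcs1: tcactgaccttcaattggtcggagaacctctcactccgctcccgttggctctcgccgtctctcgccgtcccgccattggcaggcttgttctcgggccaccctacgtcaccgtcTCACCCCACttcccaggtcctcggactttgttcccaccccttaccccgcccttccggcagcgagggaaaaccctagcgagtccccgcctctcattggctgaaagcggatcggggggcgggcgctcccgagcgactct
The E-box began 74 bases before the start in Eif5a, 13 in Prmt3, 58 in Timm9 and 101 in Insig1, and the sterol element of Hmgcs1 137 bases before it.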

How the data were processed

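Each of the 8 samples was 1 array of the MouseRef-8 v2.0 Expression BeadChip with biotin-labelled cRNA. The authors deposited, per the file headers, 1 signal intensity and 1 detection p-value per probe and array. As read from the values, these intensities are linear, without background subtraction or scaling between arrays. The authors' processed intensity values served as an alternative only, since no source used here describes how they were made.

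The deposited intensities went through the neqc function (limma 3.58.1, R 4.3.3), which corrects the background by normexp, here with negative controls derived from the detection p-values, adds an offset (16), normalizes by quantiles and takes log2. A probe was kept if its detection p was below 0.05 on 2 or more arrays, which left 12683 of 25697 probes, 11946 of them with a gene symbol in the platform annotation. No probe had several symbols and 1719 had none. By Entrez number 23962 probes matched RefSeq (GRCm38.p6), which changed 0 symbols. The brightest probe stood for its gene. Of 493 called genes with several probes, every other probe had the same call in 200 and a probe had the opposite call in 1.

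The 8 arrays entered 1 linear model with a mean per day (lmFit and eBayes, 4 residual degrees of freedom), with Benjamini-Hochberg adjustment per comparison and a threshold of 0.05. The model was tested on simulated data. Gene lists (53, with 1085 distinct genes tested and 139 not on the array) were described by counts and medians without a test. The members, lists and tests were chosen with earlier results of these data known.

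Genes were named by a rule over peaking and dipping genes: the 15 with the largest smaller step in each direction among genes detected on every day compared, the 5 with the largest lower bound of the fold among those undetected on a day, up to 4 members per list, and Gas6, Myc, Dnmt3a and Mat2a. The last has no probe named in the annotation used here. Other list members, and Ctsk, Mcm5 and Max, were named as examples after their values were seen. For a gene detected on no array of a day, that day was set on each array at the lowest detected level or its own level, whichever was higher, and the fold is given as a lower bound. Alternatives covered the background correction, normalization, detection filter, probe choice, samples fitted, variance model, fold threshold, replicate block and leaving out each array.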

Additional observations from a re-analysis of the deposited data

How the results depend on the processing

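Across 19 alternatives no named gene took the opposite call. Apart from the 2-fold setting, 109 of 151 named genes kept their call in every setting that tested them. Some dim genes, such as Slc6a4 and Cd83, were tested in 18 of the 19. Requiring a smaller step of 2-fold left 94 peaking and 95 dipping genes, and a 2-fold contrast left 256 genes with a positive day 1 contrast and 359 genes with a negative day 1 contrast. With median scaling in place of quantile normalization 376 genes dipped and 1189 peaked; the median contrast of all genes was then 0.099, and of the 603 dipping genes 375 kept their call. Leaving out 1 array gave 559 to 850 peaking and 402 to 582 dipping genes, and 1183 to 1892 positive and 1281 to 1883 negative contrasts. The positive count was 1239 without day 1 replicate 1 and 1183 without day 1 replicate 2. With 1 array left on a day, its spread is taken from the other days. Apart from median scaling and the 2-fold threshold, the other settings gave 717 to 1026 peaking and 488 to 715 dipping genes. With the replicate block there were 808 peaking and 572 dipping genes, and 1820 positive and 1857 negative contrasts. The replicate numbers share only a number: deviations of same-numbered arrays correlated at -0.08 to 0.07 between days. Leaving out 1 array kept 30 to 36 nucleolar and 8 to 12 nucleotide genes peaking and 11 to 14 cholesterol genes dipping. Dim genes have only lower bounds of their folds. The cause of these shifts was not tested.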
